A study of Mus musculus with 5 samples.

Results

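BCLAF1 CUT&RUN peaks of native, that is unfixed, LSK cells were compared with those of wild-type haematopoietic stem cells (HSCs) of the mouse. LSK cells are lineage-negative cells that carry Sca1 and Kit, a mixed compartment of stem and multipotent progenitor cells. The native LSK list held 648 peaks on chromosomes 1 to 19 and X, and the HSC wild-type (WT) lists held 362 (HSC WT 1) and 452 (HSC WT 2). These 1462 peaks, of 7045 deposited in 5 lists, merged into 933 regions. Members were all peaks of the 3 lists on those chromosomes, except those in a stretch at the start of chromosome 9 that was left out of every list.

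Each library was made from 50000 sorted cells with the same BCLAF1 antibody. The genotype label is WT for the native LSK library and both HSC WT libraries. Per the labels, HSCs came from E17.5 fetal liver, pooled from 24 to 26 embryos. For LSK cells the protocol names bone marrow of adult mice, with 2 to 3 animals per pool, while the tissue label names E17.5 fetal liver. The 2 statements disagree, so age, tissue and cell type cannot be told apart in any difference given here. A library from E17.5 fetal liver HSCs with the genotype label KO (knockout), with 3890 peaks under the same rule, was used as assay background. If the label holds, it shows where the antibody and nuclease give peaks without the target, which could not be checked here. The labels do not say which allele or Cre made the knockout, nor whether different pools of embryos gave the 2 HSC WT libraries, so their spread may be technical. There was 1 native LSK library, so no test across samples was possible, and peak lists hold no expression from which the cell type could be checked.

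BCLAF1 is a nuclear protein rich in serine and arginine that is linked to transcription and to splicing, often together with its relative THRAP3. It was first described as a partner of BCL2 family proteins. In CUT&RUN an antibody ties a nuclease to chromatin and the released DNA is sequenced, so a peak marks DNA freed near the antibody's target, or DNA that the nuclease reaches without it.

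Of the 933 regions, 6 overlapped a RefSeq promoter window, which runs from 250 bases before a transcription start to 50 bases after it (GRCm38.p6, the coordinates of mm10). Some genes had no window, so more regions may lie at a start. Of the 6, the windows of 5 are printed, since they show what DNA lay under the peaks next to gene starts. All are 5′ to 3′ on the strand of the gene, and capitals mark the bases inside the peak region.
Stc2 (chr11:31370012-31370311, minus strand): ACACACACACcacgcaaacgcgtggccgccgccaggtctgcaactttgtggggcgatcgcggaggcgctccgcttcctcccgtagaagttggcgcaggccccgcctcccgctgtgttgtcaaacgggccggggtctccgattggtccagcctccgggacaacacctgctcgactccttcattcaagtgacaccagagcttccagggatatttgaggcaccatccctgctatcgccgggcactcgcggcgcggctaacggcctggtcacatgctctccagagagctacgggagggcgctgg
Relt (chr7:100863364-100863663, minus strand): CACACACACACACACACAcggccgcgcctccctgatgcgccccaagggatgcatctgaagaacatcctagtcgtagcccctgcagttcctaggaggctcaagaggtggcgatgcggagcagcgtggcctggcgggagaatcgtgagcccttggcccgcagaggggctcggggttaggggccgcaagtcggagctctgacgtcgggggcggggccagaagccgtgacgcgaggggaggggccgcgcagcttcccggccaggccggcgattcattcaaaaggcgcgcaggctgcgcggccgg
Gm13822, beside Oasl1 (chr5:114922212-114922511, minus strand): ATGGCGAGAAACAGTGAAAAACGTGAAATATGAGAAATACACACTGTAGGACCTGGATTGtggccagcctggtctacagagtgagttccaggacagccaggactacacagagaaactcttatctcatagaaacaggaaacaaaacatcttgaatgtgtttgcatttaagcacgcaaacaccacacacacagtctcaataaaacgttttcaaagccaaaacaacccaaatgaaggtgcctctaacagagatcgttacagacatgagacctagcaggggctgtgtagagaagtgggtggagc
Gm40237 (chr4:118547156-118547455, plus strand): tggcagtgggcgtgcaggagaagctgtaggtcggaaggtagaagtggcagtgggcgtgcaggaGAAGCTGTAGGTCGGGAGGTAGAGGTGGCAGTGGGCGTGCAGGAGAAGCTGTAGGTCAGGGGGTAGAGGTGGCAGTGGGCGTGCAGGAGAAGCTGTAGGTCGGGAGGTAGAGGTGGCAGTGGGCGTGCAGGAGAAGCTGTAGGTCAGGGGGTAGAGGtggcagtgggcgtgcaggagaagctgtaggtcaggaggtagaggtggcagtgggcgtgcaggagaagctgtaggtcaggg
Cracr2a (chr6:127561086-127561385, plus strand): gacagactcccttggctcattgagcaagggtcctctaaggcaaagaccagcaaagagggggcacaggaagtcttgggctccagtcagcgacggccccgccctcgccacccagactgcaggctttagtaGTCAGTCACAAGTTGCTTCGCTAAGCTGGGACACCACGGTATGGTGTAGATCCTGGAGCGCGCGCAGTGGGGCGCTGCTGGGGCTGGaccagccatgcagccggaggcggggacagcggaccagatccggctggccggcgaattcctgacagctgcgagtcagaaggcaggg
The regions at Stc2 and Relt reached 10 and 18 bases into the window, and those bases were a run of alternating A and C. The 10-letter run ACACACACAC, on either strand, stood in 485 of 32585 RefSeq promoter windows (1.49%) and in 2 of the 6 overlapped here. The window of Gm40237, a long non-coding RNA, repeated itself: shifted by 88 bases it was 97.6% identical, and 6 of all windows (0.0184%) reached 90% at any shift. The sixth window, of Gm15564, overlapped a region by 12 bases at its 3′ end. The regions at Relt, Gm13822 and Gm15564 were in all 3 lists. The region at Stc2 was in native LSK and HSC WT 2, and the one at Gm40237 in native LSK and HSC WT 1. All 5 of these also carried a KO peak. The region at Cracr2a, which encodes a regulator of store-operated calcium entry, was in HSC WT 2 alone, with 4 reads and no KO peak.

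Nearly all sites with many reads had a peak in both cell types, while many weak native LSK peaks had none in HSC WT. Of 648 native LSK peaks, 301 shared at least 1 bp with a peak of either HSC WT list (46.5%, exact 95% interval 42.6 to 50.4). With HSC WT 1 the number was 267 (41.2%) and with HSC WT 2 it was 229 (35.3%). Read the other way, 265 of 362 HSC WT 1 peaks lay on a native LSK peak (73.2%, 68.3 to 77.7), more than the 217 that lay on an HSC WT 2 peak (59.9%, 54.7 to 65.0). Of 452 HSC WT 2 peaks, 236 lay on a native LSK peak (52.2%, 47.5 to 56.9) and 224 on an HSC WT 1 peak (49.6%). In the full lists, neither HSC WT list shared less with native LSK than with the other HSC WT list, but native LSK was the longest list. With each list held to its 362 strongest peaks, 62.2% of HSC WT 1 and 56.4% of HSC WT 2 peaks lay on a native LSK peak. In that setting 57.2% of HSC WT 1 peaks lay on an HSC WT 2 peak. Where peaks overlapped, their summits were close, at a median of 12 bp for native LSK and HSC WT 1, 11.5 bp for native LSK and HSC WT 2, and 10 bp for the 2 HSC WT lists.

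These shares moved with list size and depth. The most common local background was 0.327 reads in native LSK, 0.339 and 0.117 in HSC WT 1 and 2, and 1.15 in HSC KO, so native LSK and HSC WT 1 were of like depth, native LSK had 2.80 times the background of HSC WT 2, and HSC KO had 3.50 times that of native LSK. The weakest peaks had 6 reads over the summit in native LSK and in HSC WT 1. They had 4 in HSC WT 2, and in HSC KO 9. With peaks of at least 9 reads in every list, 95.9% of HSC WT 2 peaks lay on a native LSK peak, and with a −log10 q-value of at least 5, 84.7% did.

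**Figure D1:**
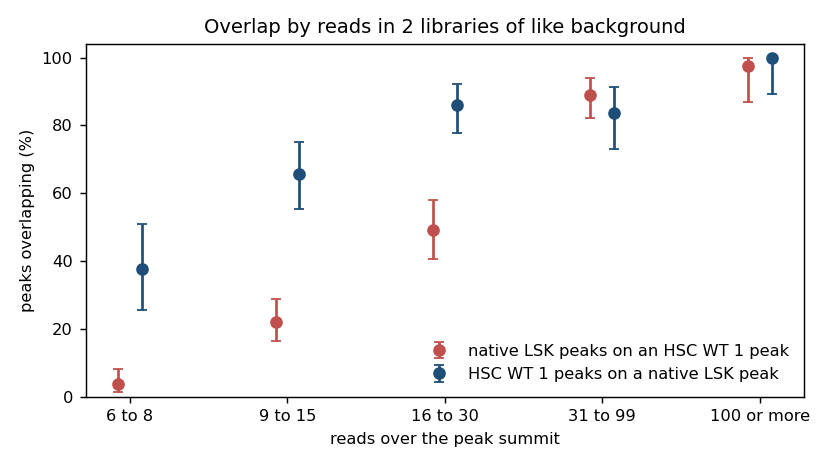
Share of peaks (%, y axis) that overlap a peak of the other list, by reads over the peak summit (x axis), for native LSK peaks on HSC WT 1 and the reverse. Points are shares and bars exact 95% binomial intervals. Of native LSK peaks, 3.82% overlapped at 6 to 8 reads and 97.5% at 100 or more.

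Overlap between the 2 libraries of like depth rose with the reads behind a peak, as the plot of overlap by reads shows. Of native LSK peaks with 6 to 8 reads, 6 of 157 lay on an HSC WT 1 peak (3.82%, 1.42 to 8.13). The numbers were 41 of 186 at 9 to 15 reads (22.0%), 68 of 138 at 16 to 30 (49.3%), 113 of 127 at 31 to 99 (89.0%) and 39 of 40 at 100 or more (97.5%). HSC WT 1 peaks were found in native LSK more often at low reads, 23 of 61 at 6 to 8 (37.7%, 25.6 to 51.0), 63 of 96 at 9 to 15 (65.6%) and 86 of 100 at 16 to 30 (86.0%). At 31 to 99 reads the 2 directions had overlapping intervals, with 61 of 73 HSC WT 1 peaks on native LSK (83.6%, 73.0 to 91.2). All 32 of 100 or more were shared. In each of the 3 bins up to 30 reads, the share of native LSK peaks called in HSC WT 1 was lower than the reverse share, with intervals that did not overlap. The difference itself was not tested. Intervals cover counting error only, as no molecular identifiers tell copied reads from separate molecules.

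The regions fell into 7 classes by the lists that held them. All 3 lists held 193 regions, native LSK and HSC WT 1 held 69, and native LSK and HSC WT 2 held 34, which makes 296 regions shared by the cell types. Native LSK alone held 347. Of 290 regions without a native LSK peak, both HSC WT lists held 23, HSC WT 1 alone 74 and HSC WT 2 alone 193. Regions in all 3 lists had a median of 36 reads in native LSK, and regions of native LSK alone a median of 9. Regions of HSC WT 2 alone had a median of 4 reads, the fewest of any peak in that list. Without HSC WT 2 the regions of HSC alone numbered 97, and with at least 9 reads in every list they numbered 63. With each list held to its 362 strongest peaks, native LSK alone had 117 regions and HSC WT alone 262. Here as in the full lists, HSC WT stands for 2 lists and native LSK for 1, so these numbers do not compare like with like. At that size 57.2% of HSC WT 1 peaks lay on an HSC WT 2 peak.

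**Figure D2:**
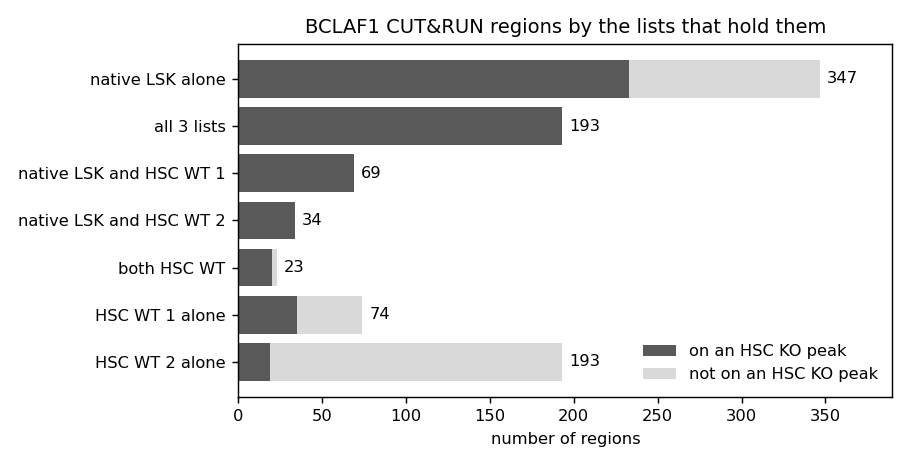
Number of regions (x axis) in each combination of lists (y axis), split by whether an HSC KO peak lay on the region (dark) or not (light). All 296 shared regions lay on an HSC KO peak, against 233 of 347 in native LSK alone and 19 of 193 in HSC WT 2 alone.

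All 296 shared regions overlapped an HSC KO peak (100%, 98.8 to 100). Of the 347 in native LSK alone, 233 did (67.1%, 61.9 to 72.1) and 114 did not. Among the 290 in HSC WT without native LSK, 74 did (25.5%, 20.6 to 30.9), which split into 20 of 23 in both HSC WT lists, 35 of 74 in HSC WT 1 alone and 19 of 193 in HSC WT 2 alone. Without HSC WT 2 that share was 56.7%, and it was 77.8% with at least 9 reads in every list, so it differed by over 1.5 times with the weakest peaks left out. Held to the number of native LSK peaks, the HSC KO list lay on 84.8% of shared regions, 41.2% of those in native LSK alone and 8.28% of those in HSC WT alone. The KO library was the deepest, and its part in these shares was not tested.

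The share of native LSK peaks on a KO peak rose from 43.3% at 6 to 8 reads to 89.2% at 9 to 15, 96.4% at 16 to 30 and 100% above. Of the 114 native LSK regions with neither an HSC WT nor a KO peak, 89 had 6 to 8 reads, 20 had 9 to 15 and 5 had 16 to 30.

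Enrichment is the authors' ratio of reads over the summit to the local background. The 10 strongest of all 3 lists ranked among the first 18 of 193 in native LSK, the first 17 in HSC WT 1 and the first 16 in HSC WT 2. They were chosen by mean enrichment over these 3 lists, which favours high ranks in each, so the ranks are a description. The strongest lay on chromosome X, 35252 bp away from the kinase gene Pak3 (chrX:143482999-143483114), where the enrichment was 118 in native LSK, 113 and 114 in HSC WT 1 and 2, and 121 in HSC KO. A region inside Chl1, a neural cell adhesion gene (chr6:103649063-103649292), had 106, 100.3 and 110 in the same order, and 98.2 in HSC KO. Next came regions nearest Dpy19l2, 2210408I21Rik, Rab10 and Cdk5rap2, a further one near Chl1, and regions nearest Tcstv3, Diaph3 and Rpusd4. At the region nearest Tcstv3 (chr13:120321452-120321637) the reads were 172 in native LSK (exact Poisson 95% interval 147 to 200), 150 in HSC WT 1 (127 to 176) and 59 in HSC WT 2 (44.9 to 76.1). At the one nearest Diaph3 they were 129, 109 and 41. Divided directly by the local background, the reads of the latter stood at 108, 104 and 105. All 10 of these regions carried a KO peak, with enrichments from 42.3 at Rpusd4 to 121 at Pak3.

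**Figure D3:**
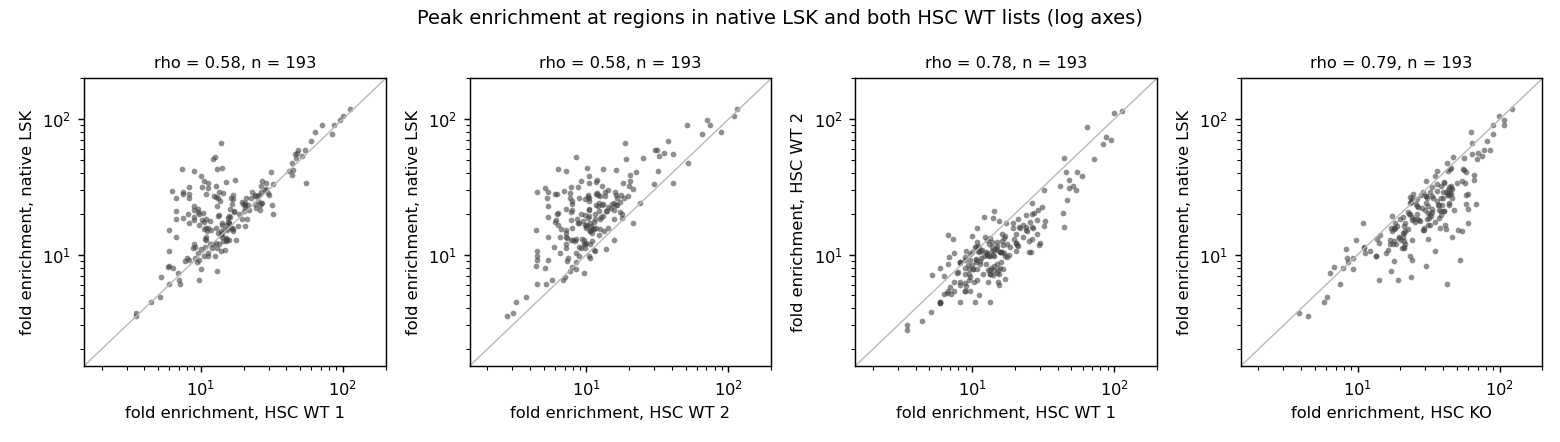
Fold enrichment of the same 193 regions in pairs of libraries, on log axes, with the line of equality in grey and Spearman's rho above each panel. Native LSK against either HSC WT library gave 0.58, the 2 HSC WT libraries 0.78, and native LSK against HSC KO 0.79.

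Rank agreement of enrichment was lower between native LSK and either HSC WT library than between the 2 HSC WT libraries. Over the regions that each pair shared, Spearman's rho was 0.62 for native LSK and HSC WT 1 (262 regions), 0.62 for native LSK and HSC WT 2 (227) and 0.78 for the 2 HSC WT libraries (216). At the 193 regions in all 3 lists it was 0.58, 0.58 and 0.78. At the same 193 regions native LSK and HSC KO gave 0.79, HSC WT 1 and HSC KO 0.48, and HSC WT 2 and HSC KO 0.45, so the order of regions in native LSK was closer to that in the KO library than the order in either HSC WT library was. As HSC KO is also an HSC library, the highest rho at the 193 regions was between cell types, by a small margin (0.794 against 0.782 for the HSC WT pair). That order did not hold on the deposited values once regions without recovered reads were left out, as given below. The points of one correlation are regions of the same 2 libraries and are not replicates.

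The gap depended on the scale. The deposited enrichment adds 1 to reads and to background before the division, which lowers it more where the local background is low. Divided without that addition, and over regions whose reads could be recovered, rho was 0.72 for native LSK and HSC WT 1 (246 regions), 0.73 for native LSK and HSC WT 2 (211) and 0.77 for the 2 HSC WT libraries (200). The deposited values of those same regions gave 0.56, 0.59 and 0.77. Against HSC KO the same scale gave 0.81 for native LSK, 0.58 for HSC WT 1 and 0.64 for HSC WT 2, over 153 regions in all 3 lists. The deposited values of those 153 regions gave 0.67, 0.20 and 0.24, and those of the HSC WT pair 0.77 over 177 regions. Among the 3 pairs without HSC KO, the 2 HSC WT libraries had the highest rho in 8 of 8 settings that gave all 3 values. The margin was small on the scale without the addition.

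On the ratio without the addition, native LSK stood above HSC WT 1 by a median log2 difference of 0.19 (SD over 246 regions 0.59). At 35 regions native LSK was more than 2-fold higher, and at 0 was it more than 2-fold lower. These 35 had a median of 42 reads in native LSK and 10 in HSC WT 1, where none had over 19, and all 35 carried a KO peak. Of the 29 that also had an HSC WT 2 peak, 23 were above HSC WT 2 and 4 were more than 2-fold above it. Among 118 regions with at least 20 reads in both libraries the SD was 0.30, and 0 differed by more than 2-fold in either direction. That 0 was set by the cut, since none of the 35 had over 19 reads in HSC WT 1 and all were left out. For native LSK against HSC WT 2, 4 of 211 regions were more than 2-fold higher and 8 more than 2-fold lower, and HSC WT 1 was more than 2-fold above HSC WT 2 at 1 of 200 regions and below it at 21.

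**Figure D4:**
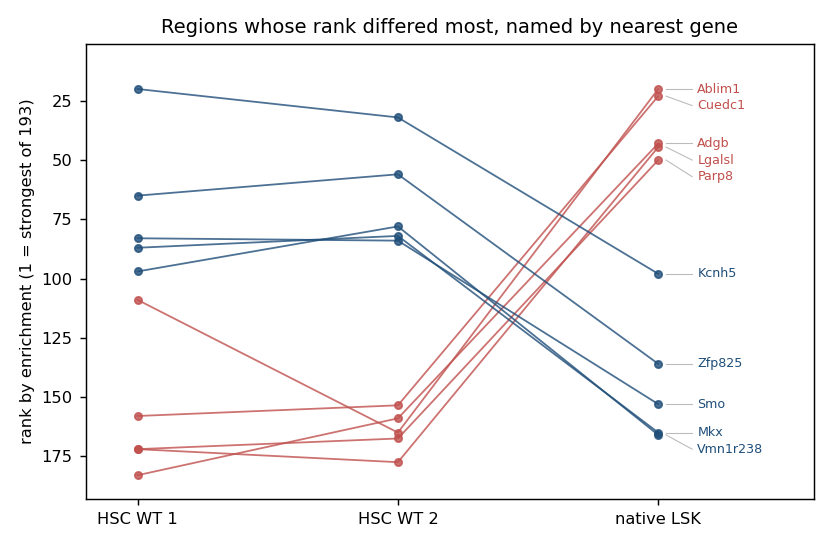
Rank by enrichment among the 193 regions in all 3 lists (y axis, 1 is strongest) in each library (x axis), for the 5 regions ranked most higher (red) and the 5 ranked most lower (blue) in native LSK, named by nearest gene. The red regions rank 20 to 50 in native LSK and 109 to 183 in the HSC WT libraries.

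Among the 193 regions, 32 stood over 50 places higher in native LSK than their mean HSC WT rank, and 22 over 50 places lower. Rank moved by over 50 places at 60 regions between native LSK and HSC WT 1, at 51 between native LSK and HSC WT 2 and at 36 between the 2 HSC WT libraries. The 5 regions that rose most were chosen for that difference, so their values are a description. A region inside Cuedc1 (chr11:88161552-88161662) had 68 reads in native LSK (52.8 to 86.2), 11 in HSC WT 1 (5.49 to 19.7) and 7 in HSC WT 2 (2.81 to 14.4), and ranked 23, 158 and 153.5. Its reads over local background were 101, 32.5 and 59.9, and it had 78 reads in HSC KO. Beside Adgb, which encodes androglobin, a region 116 bp from the gene (chr10:10335394-10335587) had 44 reads in native LSK (32.0 to 59.1), 8 in HSC WT 1 (3.45 to 15.8) and 7 in HSC WT 2. The other three lay nearest Lgalsl (43, 9 and 5 reads), Parp8 (40, 9 and 6) and inside Ablim1, an actin-binding protein gene (78, 17 and 6). At each of the 5 the native LSK interval lay above both HSC WT intervals in reads, though only HSC WT 1 was of like depth.

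Regions that ranked lower in native LSK lay nearest Mkx and Vmn1r238 on chromosome 18, Zfp825, Kcnh5 and inside Smo, the transducer of Hedgehog signals. The region nearest Kcnh5, a potassium channel gene (chr12:74804148-74804503), had 53 reads in native LSK (39.7 to 69.3), 106 in HSC WT 1 (86.8 to 128) and 34 in HSC WT 2 (23.5 to 47.5), and ranked 98, 20 and 32. At Smo (chr6:29748074-29748185) the reads were 31 in native LSK (21.1 to 44.0) and 34 in HSC WT 1 (23.5 to 47.5), so the counts overlapped although the rank was lower.

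Native LSK alone gave its strongest peak inside Mamdc2 (chr19:23357428-23357501), with 83 reads (66.1 to 103) and an enrichment of 48.8, against 76.8 in HSC KO. The other nine of the 10 with the highest enrichment had 25 to 39 reads. They lay inside Tle7, Cntnap2, Tekt3 and Laptm4a, a lysosomal membrane protein gene, and nearest Ankle1, Insig1 (a sterol-sensing protein of the endoplasmic reticulum), Fam135b, Gm15501 and Tubb3. Of the 10, 9 carried a KO peak. At Tle7 native LSK had 39 reads and HSC KO 81, and nearest Ankle1 they had 36 and 18.

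Among regions with neither an HSC WT nor a KO peak, the 4 of highest enrichment lay in 2 places. One lay 3821 bp from Tubb3, a neuronal tubulin gene (chr8:123425836-123425954, 25 reads, 16.2 to 36.9), and another near it, nearest Def8 (chr8:123434047-123434159, 26 reads). A pair lay inside Camk2b, a calcium-dependent kinase gene, at chr11:6006273-6006580 (28 reads, 18.6 to 40.5) and chr11:6011375-6011491 (17 reads). The remaining 6 of the 10, inside Wdfy2 and nearest Sntg1, Gpr173, Strip2, Mup7 and Saraf, had 10 to 14 reads.

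Of the 23 regions in both HSC WT lists without native LSK, the one of highest mean enrichment lay inside Lrfn5 (chr12:61823773-61823867), with 47 reads in HSC WT 1 (34.5 to 62.5), 17 in HSC WT 2 (9.90 to 27.2) and 49 in HSC KO. A region nearest Vmn1r2 had 62 and 26 reads, and one nearest Galc, in a stretch 1140501 bp from that gene, 49 and 11. Then came regions inside or nearest Pcca (26 and 8), Abcb11, the bile salt export pump gene (23 and 8), Gria1 (19 and 9), Map3k7, Pank1, Poc5 and Rxfp1. All 10 carried a KO peak. In HSC WT 1 alone the highest enrichment was inside Ankar, with 24 reads, followed by regions inside Enox2 (20), nearest G6pd2 (19) and inside Cpeb4 (15) and Gtf2ird1 (13), each on a KO peak. More reads, up to 46, lay in this class over a high local background near Col19a1, where the enrichment at that region was 3.41. HSC WT 2 alone was led by a region nearest Nxph1 (chr6:10186386-10186454) with 22 reads (13.8 to 33.3), and the next, inside Nf2 and nearest Mmp16, Marcks and Gcfc2, had 7 each, none of the 5 on a KO peak.

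A start or end of a protein-coding gene lay within 1 kb of 29 of the 933 regions (3.11%). The share of the genome within that distance was not computed, so this number has no background beside it. By class, it was 5.07% of shared regions, 1.73% of those in native LSK alone and 2.76% of those in HSC WT alone. Of 21631 protein-coding genes, 21 had a start or end within 1 kb of a native LSK peak (0.0971%), 22 of a peak of either HSC WT list (0.102%) and 116 of an HSC KO peak (0.536%). Of these, 14 genes were shared by native LSK and HSC WT, 7 were near native LSK regions alone and 8 near HSC WT regions alone. With 500 bp these numbers were 8, 3 and 3, and with 5 kb they were 31, 48 and 38. Regions lay inside a gene at 29.4% of shared regions (24.3 to 34.9), 36.3% of those in native LSK alone (31.2 to 41.6) and 33.4% of those in HSC WT alone (28.0 to 39.2), with overlapping intervals. A transcription start within 1 kb was found at 5.26% of 285 shared regions, 1.18% of 339 in native LSK alone and 1.40% of 286 in HSC WT alone, counting regions on chromosomes for which start sites were given. Some genes on those chromosomes, such as Psmc3 and Stau2, had no start site given, so these shares may be too low. Exon or intron is not stated, as the gene table used here gives neither.

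**Figure D5:**
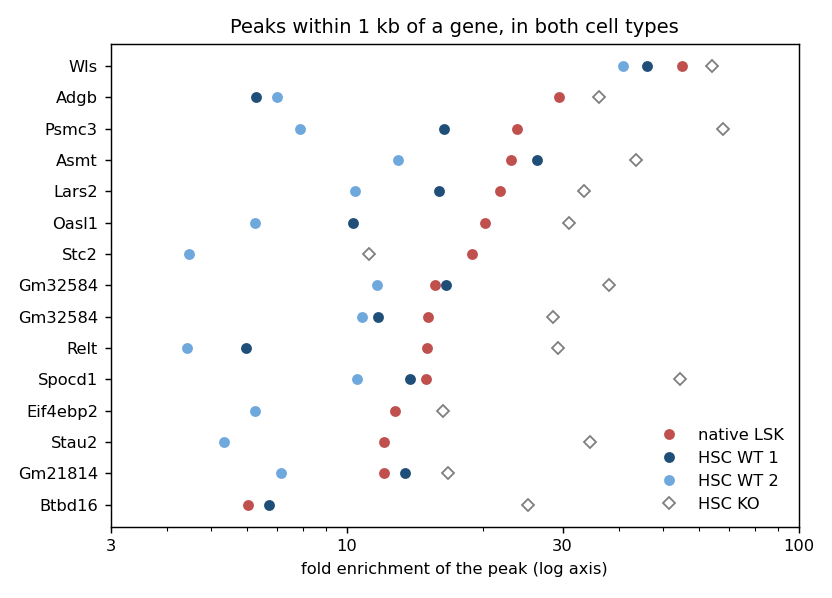
Fold enrichment (x axis, log scale) of the peaks at the 15 regions within 1 kb of a gene that both cell types share, by gene (y axis). Filled points are native LSK and the HSC WT libraries, open diamonds HSC KO, and a missing point means no peak in that list.

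All 14 shared genes also had a KO peak on the same region. The strongest was Wls, whose product carries Wnt ligands to the cell surface, with a region 746 bp beyond its 3′ end (chr3:159939412-159939679) and 165, 148 and 70 reads in native LSK, HSC WT 1 and HSC WT 2. Psmc3, a proteasome ATPase gene, had 32, 21 and 8. Asmt, for the last enzyme of melatonin synthesis, had 36, 37 and 14, and Lars2, the mitochondrial leucyl-tRNA synthetase gene, 32, 25 and 12. HSC WT 2 had the fewest reads at each of these 4.

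Further shared genes differed more in reads between native LSK and HSC WT 1, or had no HSC WT 1 peak. Oasl1, induced by interferon and related to the oligoadenylate synthetases, had 28 reads in native LSK, 13 in HSC WT 1 and 6 in HSC WT 2, in a region 662 bp before its start (chr5:114922452-114922578), the one whose sequence is shown for Gm13822. Relt, a receptor of the tumour necrosis factor family, had 19, 7 and 4. Stc2, which encodes the secreted glycoprotein stanniocalcin, had 25 reads in native LSK, 4 in HSC WT 2 and no HSC WT 1 peak, in a region 241 bp before its start (chr11:31370302-31370393). Eif4ebp2, an inhibitor of translation that binds eIF4E, had 16 in native LSK and 6 in HSC WT 2, and Stau2, which binds double-stranded RNA, 15 and 5, again with no HSC WT 1 peak. Both margins were close to the 2.80-fold difference in background, and over local background the values at Eif4ebp2 were 48.9 in native LSK and 51.3 in HSC WT 2. These genes were picked after their values were seen, and no test was made. The others were Adgb, given earlier, Gm32584 (2 regions), Spocd1, Gm21814 and Btbd16, and Btbd16 had 7 reads in native LSK, 8 in HSC WT 1 and none called in HSC WT 2.

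The 7 genes near native LSK regions alone had 6 to 12 reads. Dnajc3, a co-chaperone of the endoplasmic reticulum, and Uggt2, a glucosyltransferase of that compartment, shared 1 region between them with 12 reads (chr14:118982609-118982699). Cand2 had 10, Ccdc162 and the homeobox gene Lhx5 had 9 each, and Hbq1a, a theta-globin gene, had 8. Slc11a1, the metal-ion transporter of macrophage phagosomes, had 6 and was the one of the 7 without a KO peak (chr1:74374036-74374117).

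The 8 genes near HSC WT regions alone had 4 to 6 reads. Pate5, Slc7a5, an amino acid transporter gene, and Traf3, a signalling adaptor of the tumour necrosis factor receptor family, had 6 each in HSC WT 1. In HSC WT 2, Bod1 and Stxbp4 had 5 and Cracr2a, Ndst3 and Snx31 had 4. A KO peak lay on 1 of the 8, Bod1, with 55 reads. With a −log10 q-value of at least 5, 1 gene stayed in this class, with at least 9 reads 0 did, without HSC WT 2 the number was 3 and without HSC WT 1 it was 5.

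Genes tied to blood cells or to BCLAF1 were read against the peaks in 7 lists, 186 genes in all, of which 184 matched. A native LSK peak lay inside or within 10 kb of 5 of them (2.72%), beside 301 of all 21631 genes (1.39%). For HSC WT peaks the numbers were 2 (1.09%) beside 269 (1.24%), and for KO peaks 12 (6.52%) beside 1636 (7.56%). Of 26 transcription factors of stem and progenitor cells, Erg and Etv6, both ETS factors needed by HSCs, had a native LSK peak inside the gene, with 7 and 6 reads, and Mecom, which encodes EVI1, had an HSC WT 2 peak of 4 reads (chr3:30374984-30375074). Of these, only Erg had a KO peak, with 10 reads. Of 29 lineage genes, Hba-a2, an alpha-globin gene, had the Hbq1a region 2352 bp away. Oasl1 was the 1 interferon gene of 36 matched. Gadd45b, a stress-inducible gene of the p53 and DNA damage list of 23, had a native LSK peak of 21 reads 5548 bp away (chr10:80924455-80924543) and 56 reads in HSC KO. The lists of 28 NF-kB and inflammation genes, 15 hepatocyte genes and 27 splicing factors had 0 with a native LSK or HSC WT peak.

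Bclaf1 and Thrap3 had 0 peaks within 10 kb in native LSK, HSC WT or HSC KO. The nearest native LSK peak was 1799649 bp from Bclaf1 and 1885438 bp from Thrap3. A peak list holds no coverage of the gene itself, so the knockout label could not be checked from it.

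Peaks also gathered in 12 windows of 50 kb that held 4 or more peaks in at least 1 of the 3 lists. These held 57 native LSK peaks (8.80%), 58 of HSC WT 1 (16.02%), 39 of HSC WT 2 (8.63%) and 73 of HSC KO (1.88%). The windows were chosen on the 3 lists, which raises their shares, while HSC KO took no part in the choice. By number HSC KO had the most peaks there, and its low share is of a far longer list. Of the 12, 10 held native LSK peaks: the window nearest Tcte2 on chromosome 17 had 11 from native LSK, 8 from HSC WT 1 and 6 from HSC WT 2, and the one nearest Gm2244 on chromosome 14 had 10, 7 and 11. The remaining 2 held none from native LSK. One lay 23723 bp from Col19a1, at chr1:24611645-24615580, with 7 HSC WT 1 and 8 HSC KO peaks but 0 from HSC WT 2. The other, in Myo3a, had 4 HSC WT 1 peaks, 1 from HSC WT 2 and 4 from HSC KO. With only peaks more than 10 kb from the next one, the overlap of native LSK with HSC WT was 41.0%.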

How the data were processed

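The files are 1 peak list per library, on mm10 per the submitters' processing notes. The sources used here do not name the aligner, peak caller, control or handling of duplicates. Each deposited list gives a fold enrichment (a ratio to the local background), −log10 p-values and −log10 q-values, and a deposited score, which is 10 times the −log10 q-value without its decimals. Enrichments were not scaled between libraries. Reads over each summit were recovered as the whole number that, with a pseudocount of 1, gave both the deposited enrichment and its Poisson p-value (relative tolerance 0.0001). This worked in 100% of peaks up to a −log10 p-value of 300, and 18, 16 and 16 stronger peaks of native LSK, HSC WT 1 and HSC WT 2 were not resolved. The most common background served as a measure of depth.

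Peaks overlapping by at least 1 bp were linked into regions. Shares have exact (Clopper-Pearson) 95% intervals and reads exact Poisson ones. Genes and promoters came from RefSeq (GRCm38.p6). Promoter windows on chromosome 18 were not used here, and some genes on other chromosomes, such as Psmc3 and Stau2, had no window or strand. Named regions were the 10 strongest of all 3 lists, of native LSK alone, of those without a KO peak and of both HSC WT lists, the 5 strongest of each HSC WT list alone, and the 5 ranked most higher and most lower in native LSK, together with genes within 1 kb, members of the gene lists, Bclaf1 and Thrap3. Members and lists were chosen with earlier results of these data known. Scripts (Python 3.11.15, pandas 2.3.3, SciPy 1.17.1) were tested on simulated data. The alternatives varied the overlap rule, the q-value, list size, chromosomes, crowded peaks, the gene distance, the KO list and the libraries used. The fixed LSK list was not used.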

Additional observations from a re-analysis of the deposited data

Results flagged for a closer look

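Peaks outside the comparison were a larger share of the 3 lists than of HSC KO, where 17.4% lay outside. The share was 27.4% in native LSK, 33.5% in HSC WT 1 and 25.5% in HSC WT 2. In native LSK these were 65 peaks at the start of chromosome 9, 57 on chromosome Y, 2 mitochondrial and 121 on other sequences, and the HSC KO list held 71, 556, 12 and 183.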

How the results depend on the processing

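Over 14 alternatives 55 values moved by less than a limit set for each kind of value and 64 by more. The limit was no measure of spread between samples. For rho it was 0.00195, so a move from 0.616 to 0.619 (native LSK and HSC WT 1) counted as more. A fall in regions of native LSK alone from 347 to 238, with at least 9 reads, counted as less. The 2 counts therefore do not measure how stable the results were. Below, shares are percentages of native LSK peaks on HSC WT, of HSC WT 1 and HSC WT 2 peaks on native LSK, and of HSC WT 1 on HSC WT 2, and rho is given for native LSK with HSC WT 1, native LSK with HSC WT 2, and the HSC WT pair. With a −log10 q-value of at least 5 the first 3 shares were 51.2%, 78.2% and 84.7%, KO peaks lay on 84.8% of regions of native LSK alone and 59.3% of 91 regions of HSC WT alone, 1 gene was near the latter, and rho was 0.61, 0.61 and 0.72. With at least 9 reads in every list, chosen after seeing the data, the 4 shares were 51.5%, 79.7%, 95.9% and 50.2%, KO peaks lay on 89.5% of native LSK and 77.8% of 63 HSC WT regions, 0 genes were near HSC WT alone and 8 near shared regions, and rho was 0.62, 0.70 and 0.79. With lists of equal size the 4 shares were 67.7%, 62.2%, 56.4% and 57.2%. The first counts overlap with 2 HSC WT lists together and the others with 1 list, so their order is no comparison of cell types. Native LSK alone then had 117 regions and the 2 HSC WT lists together 262 without native LSK, where the full lists gave 347 and 290. Without peaks within 10 kb of another the first 3 shares were 41.0%, 67.6% and 42.6%, KO peaks lay on 20.0% of HSC WT and 94.98% of shared regions, and rho was 0.58, 0.65 and 0.79. With all chromosomes and the start of chromosome 9 the first 3 shares were 52.5%, 77.9% and 62.8%, 461 regions were shared, and rho was 0.87, 0.84 and 0.91. With an overlap of 50% of the shorter peak rho of the first pair was 0.62, and with summits within 100 bp the first 2 were 0.62 and 0.63. Without the pseudocount rho was 0.72, 0.73 and 0.77. With the KO list held to the native LSK number, KO peaks lay on 41.2% of native LSK, 8.28% of HSC WT and 84.8% of shared regions. With native LSK peaks on KO peaks left out, 0% overlapped HSC WT. With 500 bp, 3 genes were near native LSK alone, 3 near HSC WT alone and 8 near both, and with 5 kb 48, 38 and 31. Leaving out either HSC WT library gave 35.3% to 41.2% of native LSK peaks on HSC WT, KO shares of 70.1% to 72.8% for native LSK and 18.1% to 56.7% for HSC WT alone, 97 to 216 regions of HSC WT alone and 3 to 5 genes near them. Stricter settings leave fewer and stronger peaks by construction, and the cause of the other moves was not tested. No paired analysis was possible because the native LSK and HSC WT groups share fewer than 2 replicate numbers and no test was run. With 1 native LSK library, its spread between samples is unknown, and sites with few reads in HSC WT 2 could not be told from sites without a peak at this depth.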
